A study of Mus musculus with 2 samples.

Results

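The genes described here are 10 members of the Sox family of transcription factors, of 32285 genes counted. They were chosen by gene symbol and not by level: Sox1, Sox2 and Sox3 of subgroup SoxB1, Sox21 of SoxB2, Sox4 and Sox11 of SoxC, Sox5 of SoxD, and Sox8, Sox9 and Sox10 of SoxE. RNA was counted cell by cell in mouse embryonic tissue labelled brain, in an NTD library (NTD, neural tube defect) and a control library, 1 of each. The dams of the NTD embryos were kept on little folate and given 1.5 mg/kg of methotrexate, a folate antagonist, into the peritoneum on gestational day 7.5. The control group received normal saline and its embryos had closed neural tubes. Whether the tube had closed was judged at embryonic days 9.5 to 10.5. The NTD embryos were described as small and delayed, mainly with hindbrain malformation or spina bifida. What the control dams ate, the strain of these mice, and how many embryos of which stage and sex went into a library is not stated in the sources at hand. Because each group is 1 library, no p-value was computed and no difference could be checked in replicates. All intervals are 95% intervals that cover counting error only.

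Sox proteins bind DNA through a domain of the high mobility group (HMG) type, whose sequence is shared across the family and sorts it into subgroups. SoxB1 proteins keep cells of the neural tube wall in the progenitor state, and the SoxB2 protein Sox21 is known from chick embryos to work against them and to favour neuron formation. SoxC proteins act in young neurons and also in many other immature tissues. SoxE proteins act in the neural crest, the migratory cells that give rise to peripheral glia and pigment cells, and later in glia. Sox9 also works with the SoxD proteins Sox5 and Sox6 to turn on cartilage genes. Sox5 lacks a known transactivation domain of its own, and it is also present in neural crest and in some neurons.

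The stretch of coding sequence at the start of the HMG box is shown for 7 of the genes, because it shows how alike the domain is between genes whose patterns of level differ. Each run is 90 bases of GRCm38 read 5′ to 3′ on the coding strand, from the GENCODE M21 annotation, and capitals mark bases that differ from Sox2 at the same place.
Sox2: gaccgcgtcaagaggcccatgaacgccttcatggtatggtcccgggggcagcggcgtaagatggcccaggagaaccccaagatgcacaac
Sox21: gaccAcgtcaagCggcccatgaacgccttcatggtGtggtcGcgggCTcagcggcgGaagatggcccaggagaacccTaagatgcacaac
Sox4: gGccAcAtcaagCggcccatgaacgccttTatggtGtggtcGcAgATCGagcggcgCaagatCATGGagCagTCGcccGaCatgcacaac
Sox11: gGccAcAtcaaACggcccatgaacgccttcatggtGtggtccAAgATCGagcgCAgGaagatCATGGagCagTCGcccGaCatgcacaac
Sox5: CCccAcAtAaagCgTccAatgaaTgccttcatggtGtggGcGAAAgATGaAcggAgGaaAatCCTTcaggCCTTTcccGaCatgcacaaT
Sox9: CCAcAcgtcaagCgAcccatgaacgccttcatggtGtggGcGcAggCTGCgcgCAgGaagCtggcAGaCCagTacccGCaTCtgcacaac
Sox10: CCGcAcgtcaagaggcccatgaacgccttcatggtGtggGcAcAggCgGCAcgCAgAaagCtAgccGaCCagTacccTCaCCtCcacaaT
The Sox2 run lies at chr3:34650536-34650625 on the plus strand. Sox21 differed from it at 8 of the 90 bases (chr14:118235531-118235620, minus), Sox4 at 24 (chr13:28952764-28952853, minus) and Sox11 at 26 (chr12:27342181-27342270, minus). Sox5 differed at 34 bases (chr6:143841196-143841285, minus), Sox9 at 27 (chr11:112782891-112782980, plus) and Sox10 at 27 (chr15:79163324-79163413, minus). Sox1, Sox3 and Sox8, not printed, differed from Sox2 at 8, 7 and 28 bases. Over the whole box of 237 bases, Sox4 and Sox11 were 89.5% identical, Sox9 and Sox10 83.1%, and Sox5 and Sox8, the least alike pair, 56.5%.

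In the annotation, Sox1 (chr8:12395295-12400126), Sox2 (chr3:34650405-34652461), Sox3 (chrX:60891366-60893430), Sox21 (chr14:118233232-118237030), Sox4 (chr13:28948919-28953713) and Sox11 (chr12:27334264-27342574) each consist of a single exon. Sox8 (chr17:25565892-25570686) and Sox9 (chr11:112782224-112787760) have 3 exons and Sox10 (chr15:79154908-79165240) has 5. Sox5 (chr6:143828425-144781977) spans 953553 bp with up to 15 exons in a transcript. Sox2 lies within the long noncoding gene Sox2ot on the same strand and Sox1 within Sox1ot, so reads of these pairs can be hard to assign. Sox5 overlaps the noncoding gene Sox5it on its own strand and 5 antisense genes. Counts were made at the 3′ ends of transcripts, and levels are not compared between genes.

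The NTD library held 19056 barcodes with a median of 2456 UMIs (unique molecular identifiers, 1 per captured RNA molecule), and the control library held 18572 barcodes with a median of 2234 UMIs. After removal of likely doublets, 16151 NTD and 15813 control cells remained, with 66115 and 52200 UMIs of the 10 Sox genes. Cells were clustered with every Sox gene left out, and clusters were named from other marker genes, so that no class was chosen by the genes described. Of 25 clusters, 18 took a name and 7 stayed unnamed, with 29.0% of NTD and 43.9% of control cells in the unnamed ones. The libraries differed in tissue make-up: in 5 clusters over 90% of cells were control cells, and liver- or yolk sac-like cells numbered 3 in the NTD and 151 in the control library. Summed Hox genes, which mark the hindbrain and spinal cord, stood at 58.8 CPM (counts scaled to a common total of UMIs) in NTD and 1277 CPM in control neural progenitor-like cells and a list of forebrain genes at 240.1 and 132 CPM. Xist, the RNA of the silenced X chromosome of females, stood at 901 and 175 CPM in the same class. The libraries shared 105 cell barcodes. All 12 progenitor markers were counted in the progenitor-like class of each library, summing to 2723 CPM in NTD and 3071 CPM in control. All 14 neuron markers were counted in the neuron-like class, at 5106 and 6309 CPM. These markers named both classes, so their sums describe the classes and do not test the brain label.

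All 6 single-exon genes had counts in every well-filled class, including cells outside their known sites. Blood and vessel classes, that is endothelium-like, erythroid-like and macrophage-like cells pooled, served as the level against which the others are read. Sox2 stood at 75.1 CPM there in NTD and 38.9 CPM in control, Sox11 at 424 and 302 CPM, and Sox4 at 267 and 203 CPM. By contrast Sox10 had 2 UMIs in the NTD and 7 UMIs in the control blood and vessel cells, out of 1625144 and 2186668 UMIs. A level at or below that of these classes is read as background and not as expression. This reference is not a floor, and every excess given below depends on it. Of 14 control classes outside it, the interval lay below it in 2 for Sox4 and in 3 for Sox11. In NTD cardiac muscle-like cells Sox2 stood at 26.4 CPM (9.69 to 57.5). In erythroid-like cells the median depth was 2126 UMIs in the NTD and 1646 UMIs in the control library, against 2518 and 2159 UMIs in neural progenitor-like cells. The unnamed cluster 0, with a median of 1727 UMIs in NTD and 1125 UMIs in control, carried markers of both neurons and erythroid cells and had the highest Sox3, Sox4 and Sox11 levels of the 11 classes compared, in both libraries. The blood gene Hbb-bh1 and the liver and yolk sac genes Afp and Apoa1 were among the genes that led cluster 0. Hba-x, an embryonic globin gene, stood there at 6093 CPM in NTD and 8807 CPM in control. In progenitor-like cells it stood at 3154 and 3241 CPM. Afp stood at 5.85 and 479 CPM in cluster 0, against 3.11 and 152 CPM in progenitor-like cells. The part that RNA free in the suspension has in these levels was not tested.

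**Figure D1:**
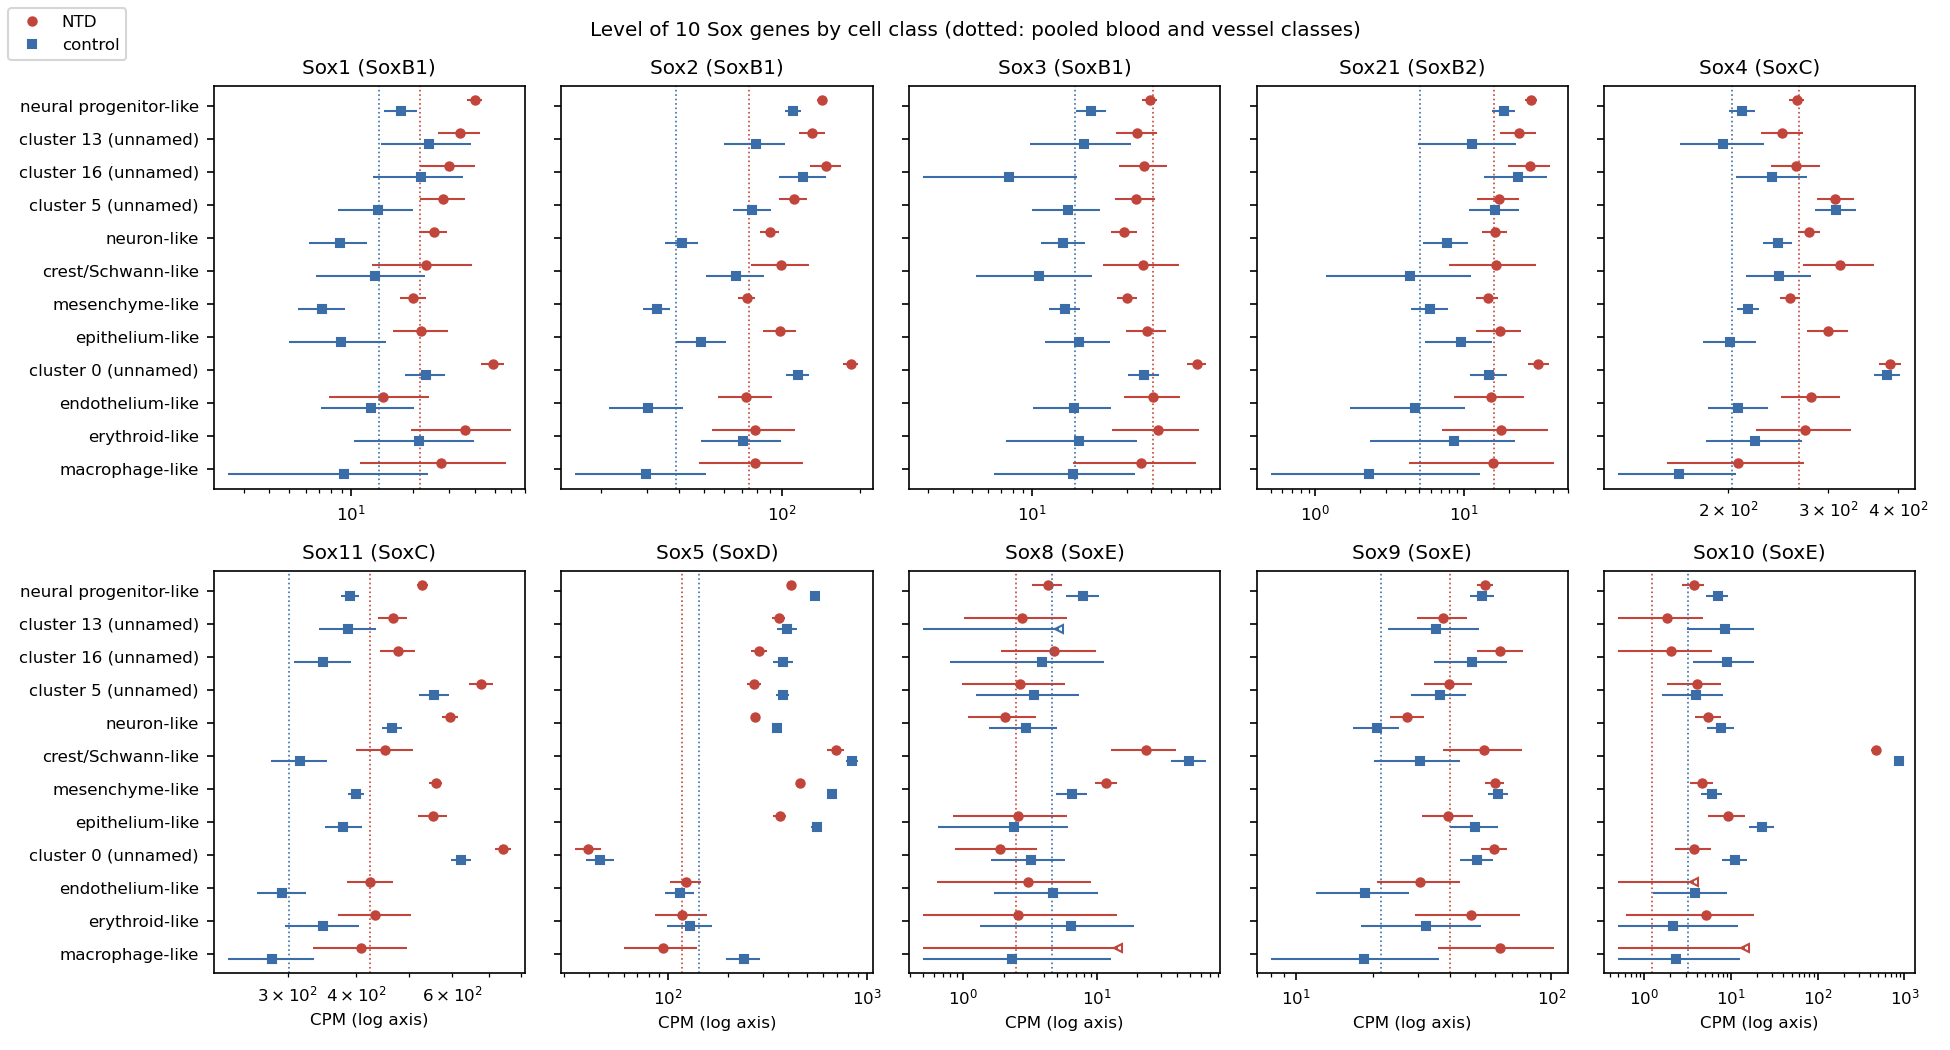
Level of each Sox gene in CPM (log axis) by cell class, as points with exact Poisson 95% intervals, NTD in red above control in blue; dotted lines mark the pooled blood and vessel level of the same library and open triangles the upper limit where no UMI was counted. Sox10 stands out in crest/Schwann-like cells at 464 CPM in NTD and 855 CPM in control, while Sox4 and Sox11 lie within a narrow span across classes.

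Sox2, the SoxB1 gene most used to mark neural stem cells, stood above the blood and vessel level in progenitor classes of both libraries. It had 144 CPM (137 to 150.1) in NTD and 110.5 CPM (103 to 119) in control neural progenitor-like cells, which line the neural tube and divide. In neuron-like cells it had 89.8 CPM (82.6 to 97.5) in NTD and 41.2 CPM (35.5 to 47.6) in control. Thus in each library progenitor-like cells lay above neuron-like cells with no overlap of intervals. The level over blood and vessel classes was 1.91-fold in NTD and 2.83-fold in control progenitor-like cells, and 1.19-fold and 1.06-fold in neuron-like cells, where the interval of the difference held 0 in both libraries. When classes were taken from the marker UMIs of each barcode in place of clusters, the log2 level in progenitor-like cells over blood and vessel classes was 0.07 (-0.03 to 0.18) in NTD and 0.77 in control, against 0.93 and 1.50 with clusters. That classing put 7915 NTD and 9988 control barcodes into the erythroid class, against 153 and 226 by clusters, so its blood and vessel level comes mostly from cells that the clusters place elsewhere. This holds for each value given with classes from marker UMIs. Cluster 16, unnamed with 7 progenitor and 4 floor plate markers, had 148 and 121 CPM, close to the progenitor-like class. After each cell was thinned to 1500 UMIs, 19.2% of NTD (18.1 to 20.4%) and 15.9% of control progenitor-like cells (14.4 to 17.5%) held a Sox2 UMI, against 32.3% and 23.7% as deposited. In erythroid-like cells, which should lack Sox2, the thinned share was 11.1% in NTD and 9.29% in control.

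In the NTD library the Sox2 levels below cluster 0 (185 CPM) ran from 148 CPM in cluster 16 through 144 CPM in progenitor-like cells, 131 CPM in cluster 13, 111 CPM in cluster 5, 99.3 CPM in crest/Schwann-like cells and 98.2 CPM in epithelium-like cells. Neuron-like cells followed, then erythroid-like cells at 79.1 CPM, macrophage-like at 78.5 CPM, mesenchyme-like at 73.2 CPM and endothelium-like cells at 72.6 CPM. Cluster 3 (65.4 CPM) and cardiac muscle-like cells (26.4 CPM, 9.69 to 57.5) came last. Each neighbour in this order overlapped the next, except cluster 0, which lay above the rest. In the control library cluster 16 (121 CPM), cluster 0 (115 CPM) and progenitor-like cells (110.5 CPM) overlapped at the top. Erythroid-like cells ranked 6 of 17 at 70.8 CPM (48.8 to 99.5), above neuron-like cells with no overlap, which was not so in the NTD library. Endothelium-like cells (30.3 CPM), macrophage-like cells (29.9 CPM) and cluster 24 (14.5 CPM) came last. Progenitor-like cells lay above endothelium-like, macrophage-like and mesenchyme-like cells in both libraries. Over the 11 classes with 100 cells or more from both libraries, the highest Sox2 level was 2.55-fold the lowest in NTD and 3.98-fold in control.

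Sox1 and Sox3, the other SoxB1 genes, were close to background in much of the tissue. Sox1 had 40.0 CPM (36.7 to 43.5) in NTD and 17.5 CPM (14.4 to 20.98) in control progenitor-like cells, against 21.5 and 13.7 CPM in blood and vessel classes. The excess over those classes was 18.5 CPM in NTD (10.6 to 26.3) and 3.76 CPM in control (-2.10 to 9.61), so Sox1 above background was not detectable in the control class at this depth. Sox3 had 39.1 and 19.9 CPM in progenitor-like cells and 40.6 and 16.5 CPM in blood and vessel classes. Cluster 0 was the only class whose Sox3 interval lay above the blood and vessel level, in either library. Whether Sox3 in cluster 0, which also led in blood and liver genes, is expression was not tested. Sox3 levels elsewhere are therefore read as background and not as expression.

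Sox21, the SoxB2 gene, followed the progenitors. It had 28.4 CPM (25.6 to 31.3) in NTD and 18.5 CPM (15.4 to 22.1) in control progenitor-like cells, and 16.1 and 7.66 CPM in neuron-like cells. The excess over blood and vessel classes in progenitor-like cells was 12.4 CPM in NTD (5.60 to 19.1) and 13.5 CPM in control (9.07 to 17.9). In neuron-like cells it was 0.14 and 2.63 CPM, with intervals that held 0. With classes from marker UMIs the log2 level in progenitor-like cells over blood and vessel classes was 0.19 (-0.06 to 0.43) in NTD and 0.80 in control. Thinned shares were 4.19% of NTD and 2.79% of control progenitor-like cells.

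The SoxC genes Sox4 and Sox11 were counted in nearly every kind of cell. Neuron-like cells exceeded blood and vessel classes for Sox11 in both libraries and for Sox4 in the control library. Sox11 had 594 CPM (575 to 613) in NTD and 465 CPM (445 to 486) in control neuron-like cells, and 529 CPM (517 to 541) and 390.1 CPM (375 to 405) in progenitor-like cells. Neuron-like cells thus lay above progenitor-like cells in each library without overlap. Cluster 5, unnamed with 9 neuron and 8 neuroblast markers, was higher still, at 675 CPM (642 to 710.2) in NTD and 555 CPM (521 to 591) in control. Blood and vessel classes held 424 and 302 CPM, so the neuron-like level was 1.40-fold that in NTD and 1.54-fold in control (log2 0.48 and 0.62). With classes from marker UMIs these log2 values were 0.03 (-0.02 to 0.08) and 0.17. Mesenchyme-like cells were also above blood and vessel classes, by 135 CPM in NTD (100.5 to 170.5) and 98.2 CPM in control (71.5 to 125). After thinning, 57.5% of NTD and 48.6% of control neuron-like cells held a Sox11 UMI, against 49.0% and 40.0% of erythroid-like cells.

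Sox4 varied least of the 10 genes. Across 11 classes its highest level was 1.55-fold the lowest in NTD and 1.95-fold in control. It had 278 CPM in NTD and 245 CPM in control neuron-like cells, where the excess over blood and vessel classes was 10.8 CPM (-17.5 to 39.1) in NTD and 41.98 CPM (18.2 to 65.8) in control. Progenitor-like cells had 264 and 212 CPM. The blood and vessel classes stood at 267 and 203 CPM, so progenitor-like cells did not exceed them, by -3.05 CPM in NTD and 8.93 CPM in control with intervals that held 0. Cluster 5 exceeded them in both libraries, at 309 and 309.7 CPM. The thinned share of progenitor-like cells with a Sox4 UMI, 32.3% in NTD and 29.2% in control, was no higher than the 39.2% in NTD erythroid-like cells and close to the 27.9% in the control ones. Macrophage-like cells had less, 208 CPM (156 to 272) in NTD and 163 CPM (128 to 206) in control. Whether Sox4 in progenitor-like cells is expression could not be told from these levels.

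Sox5, the SoxD member, had the opposite shape: it was lowest in cluster 0 and high in several tissues. Crest/Schwann-like cells had 695 CPM (630.4 to 765) in NTD and 839.6 CPM (781 to 901) in control, mesenchyme-like cells 459.9 and 661 CPM, and progenitor-like cells 416 and 544 CPM. Neuron-like cells held 274 and 353 CPM, blood and vessel classes 117 and 142 CPM, and cluster 0 39.7 and 45.5 CPM. The highest of the 11 classes was 17.5-fold the lowest in NTD and 18.5-fold in control. In both libraries crest/Schwann-like cells led, mesenchyme-like cells came next among the 11 classes compared, and progenitor-like cells lay above neuron-like cells, each without overlap. Cluster 3, with 90 NTD and 2067 control cells, had 357 CPM in NTD and 739.9 CPM in control, where it lay between crest/Schwann-like and mesenchyme-like cells. After thinning, 39.5% of NTD and 47.3% of control progenitor-like cells held a Sox5 UMI, against 9.80% and 12.9% of erythroid-like cells. With called doublets kept, the log2 level in progenitor-like cells over blood and vessel classes was 0.99 in NTD and 0.93 in control, against 1.83 and 1.93 without them. With classes from marker UMIs it was 0.49 and 0.42.

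Sox10, which marks neural crest cells and their glial offspring, was the most restricted gene. It had 464 CPM (411 to 521) in NTD and 855 CPM (796 to 917) in control crest/Schwann-like cells, from 280 and 786 UMIs. That class held 194 NTD and 308 control cells, yet 59.4% of all Sox10 UMIs of the NTD library and 72.4% of the control library. The 293 NTD endothelium-like cells held none, against 5 UMIs in 490 control cells. With 3 counts as the floor, the crest/Schwann-like level was 151-fold that of the lowest class in NTD and 133-fold in control. These folds are point values and not lower limits. A Sox10 UMI was found in 47.9% of thinned NTD crest/Schwann-like cells (40.7 to 55.2%) and 71.3% of control ones (65.8 to 76.4%). Unthinned shares were 71.1% and 87.7%, and in endothelium-like cells 0% and 1.02%. For the 293 NTD endothelium-like cells the exact upper limit of that share was 1.251%.

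Sox8, expressed with Sox10 in crest derivatives, was also highest in crest/Schwann-like cells, at 23.2 CPM (12.7 to 38.9, from 14 UMIs) in NTD and 48.9 CPM (35.7 to 65.5, from 45 UMIs) in control. Mesenchyme-like cells had 11.7 and 6.52 CPM, which in the NTD library was above the 2.46 CPM of blood and vessel classes. In control mesenchyme-like cells the interval of the difference from blood and vessel classes (4.57 CPM) held 0. Sox9 did not follow its SoxE relatives. It had 60.0 CPM in NTD and 61.8 CPM in control mesenchyme-like cells, 55.1 and 53.5 CPM in progenitor-like cells, and 27.3 and 20.7 CPM in neuron-like cells. Blood and vessel classes held 40.0 and 21.5 CPM of Sox9. In crest/Schwann-like cells it had 54.6 CPM (33 UMIs) in NTD and 30.5 CPM (28 UMIs) in control, not detectably above the blood and vessel level in either library. The excess of Sox9 in mesenchyme-like cells was 19.97 CPM in NTD (9.08 to 30.9) and 40.3 CPM in control (32.2 to 48.4).

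No cluster met the rule for a cartilage name, so cartilage could be read only within mesenchyme-like cells. The NTD cells of that class came mostly from cluster 1 (2681 of 3129 cells), and the control cells mostly from clusters 8 (1326 cells) and 9 (843 cells) of 2992. Of 16 genes of the Sox5, Sox6 and Sox9 cartilage programme, 11 were measured (at least 20 UMIs over both libraries). Acan, the cartilage proteoglycan, had 3 UMIs in NTD and 0 in control, and Matn1 and Snorc had 0 in both. Col2a1, the main cartilage collagen and a direct Sox9 target, had 74.2 CPM in NTD and 85.3 CPM in control. None of the 11 was at least 1.5-fold higher in NTD and 4 were at least 1.5-fold lower, where 6.86% and 13.7% of all 15695 measured genes were. Their median log2 ratio of NTD over control was -0.46, against -0.17 for all measured genes. The named ones were Sox6 at 131 and 213 CPM (log2 -0.70), Col27a1 at 36.6 and 56.0 CPM (-0.61), and Col11a1 at 112 and 166 CPM (-0.57).

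Along the passage from progenitor to neuron, barcodes were binned by their UMIs of 14 neuron markers after thinning. They came from the progenitor-like and neuron-like classes and from unnamed cluster 5, which carried neuron and neuroblast markers. Sox2 stood at 131, 155, 125, 93.9 and 91.9 CPM over the bins of 0, 1 to 2, 3 to 5, 6 to 10 and over 10 marker UMIs for NTD, and at 123, 122, 80.6, 53.4 and 43.2 CPM for control. The top bin was lower than the bottom bin by 0.51 on the log2 scale in NTD (-0.99 to -0.04) and by 1.50 in control (-2.12 to -0.92). The intervals of these differences overlapped only near their ends, and the difference between the libraries was not tested. Sox5 was lower in the top bin in both libraries, at log2 -1.07 in NTD and -0.85 in control, as was Sox9 at -1.50 and -1.18. Sox11 ran the other way, at 607 CPM in the top and 539.6 CPM in the bottom bin of the NTD library and 474 and 405 CPM in the control library, but both intervals reached below 0 (log2 0.17 and 0.23). Sox4 was level in NTD (log2 -0.01, -0.31 to 0.29) and higher in the top bin in control (0.36, 0.04 to 0.69). A bin is a range of a score and not a cell type.

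**Figure D2:**
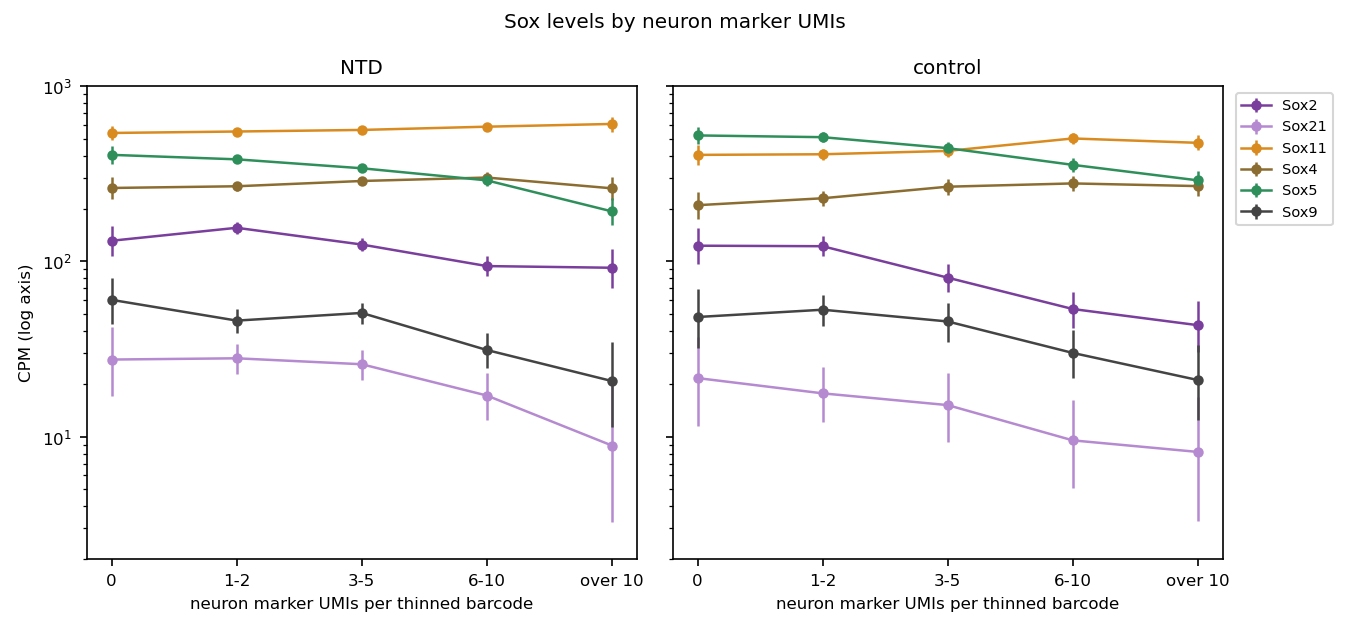
Level in CPM (log axis) of 6 Sox genes in barcodes binned by UMIs of neuron markers, NTD left and control right. Lines are exact Poisson 95% intervals, and barcodes are those of progenitor-like cells, neuron-like cells and cluster 5. Sox2, Sox21, Sox5 and Sox9 are lowest in the top bin in both libraries, and Sox11 stands at 607 and 474 CPM there.

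Between the libraries, the single-exon genes were higher in NTD and Sox5 and Sox10 lower, in nearly every class. In progenitor-like cells 3 of the 10 Sox genes were at least 1.5-fold higher in NTD and 2 at least 1.5-fold lower, where 5.67% and 14.9% of all 15918 measured genes were. The higher ones were Sox1 (log2 ratio of NTD over control 1.19, 0.90 to 1.50), Sox3 (0.97, 0.70 to 1.26) and Sox21 (0.61, 0.32 to 0.92). The lower ones were Sox8 (-0.89, -1.45 to -0.32) and Sox10 (-0.92, -1.52 to -0.31), both under 10 CPM there. Within cluster 2 Sox8 was at -0.07 (-1.27 to 1.59) and Sox10 at 0.41 (-0.84 to 2.24). Within cluster 4 Sox8 was at 0.33 (-0.61 to 1.19) and Sox10 at -1.88 (-3.98 to -0.55). Neither gene was past the fold in both clusters, but these few UMIs cannot decide whether the lower calls hold within clusters. Sox2 was at 0.38, Sox11 at 0.44, Sox4 at 0.32, Sox5 at -0.39, and Sox9 at 0.04 with an interval that held 0. The median over all measured genes was -0.19 and over the 10 Sox genes 0.35. At 2-fold, 1 Sox gene was higher and 0 lower (1.34% and 5.16% of genes), and 5 were past a log2 ratio of 0.32 upward (13.4% of genes). The NTD cells of this class came mostly from cluster 2 (2290 of 4798 cells) and the control cells mostly from cluster 4 (1252 of 2491). Trimmed mean scaling in place of total counts moved every ratio of this class up, Sox9 to 0.22 and Sox5 to -0.21, and the sign of Sox9 in mesenchyme-like cells depended on the scaling.

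In neuron-like cells 4 Sox genes were at least 1.5-fold higher in NTD and 0 lower, against 8.96% and 15.9% of 14702 genes. The higher ones were Sox1 (log2 1.51), Sox2 (1.12, 0.88 to 1.37), Sox3 (1.009) and Sox21 (1.06). Past a log2 ratio of -0.32 there were 3 lower, Sox5 (-0.37), Sox8 (-0.52) and Sox10 (-0.48), where 34.3% of genes were. Mesenchyme-like cells, outside the neural tube, showed 5 higher and 0 lower (6.86% and 13.7% of genes), namely Sox8 (log2 0.83) and the same 4 SoxB genes at 1.46, 1.15, 1.03 and 1.28. Within cluster 1, which gave most NTD cells of that class, Sox8 had 12.9 CPM in NTD and 13.3 CPM in control (log2 -0.06). Endothelium-like cells showed 4 of 8 measured genes higher and 0 lower (8.47% and 15.3%), with Sox2 at 72.6 CPM in NTD and 30.3 CPM in control. Across the 11 classes Sox1, Sox2, Sox3 and Sox11 were higher in NTD in 11 of 11. They were also higher in 17 of 17 clusters that held 100 cells or more from both libraries. How many of all measured genes did the same was not counted. Sox3, the only X-linked member, was past 1.5-fold in all 11 classes, and Xist differed between the libraries as given above. The part of embryo sex in the Sox3 difference was not tested. Unnamed cluster 0 showed 4 of 10 higher and 2 lower (3.91% and 18.2%), cluster 5 showed 2 of 8 and 0 (7.99% and 18.1%), cluster 13 showed 3 of 8 and 0 (7.99% and 16%), and cluster 16 showed 1 of 8 and 0 (8.17% and 14.5%). Epithelium-like cells showed 4 of 9 and 2 (8.05% and 18.6%), and erythroid-like cells 2 of 7 and 0 (8.94% and 29.5%). Sox5 was lower in NTD in 10 of 11 classes, and Sox10 in 6 of the 6 classes where it was measured. The median over all measured genes was itself below 0 in each of the 11 classes, from -0.26 to -0.11. Among measured genes Sox5 ranged from percentile 16.8 in mesenchyme-like to 67.3 in endothelium-like cells. Sox10 ranged from percentile 2.30 in cluster 0 to 25.6 in mesenchyme-like cells.

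**Figure D3:**
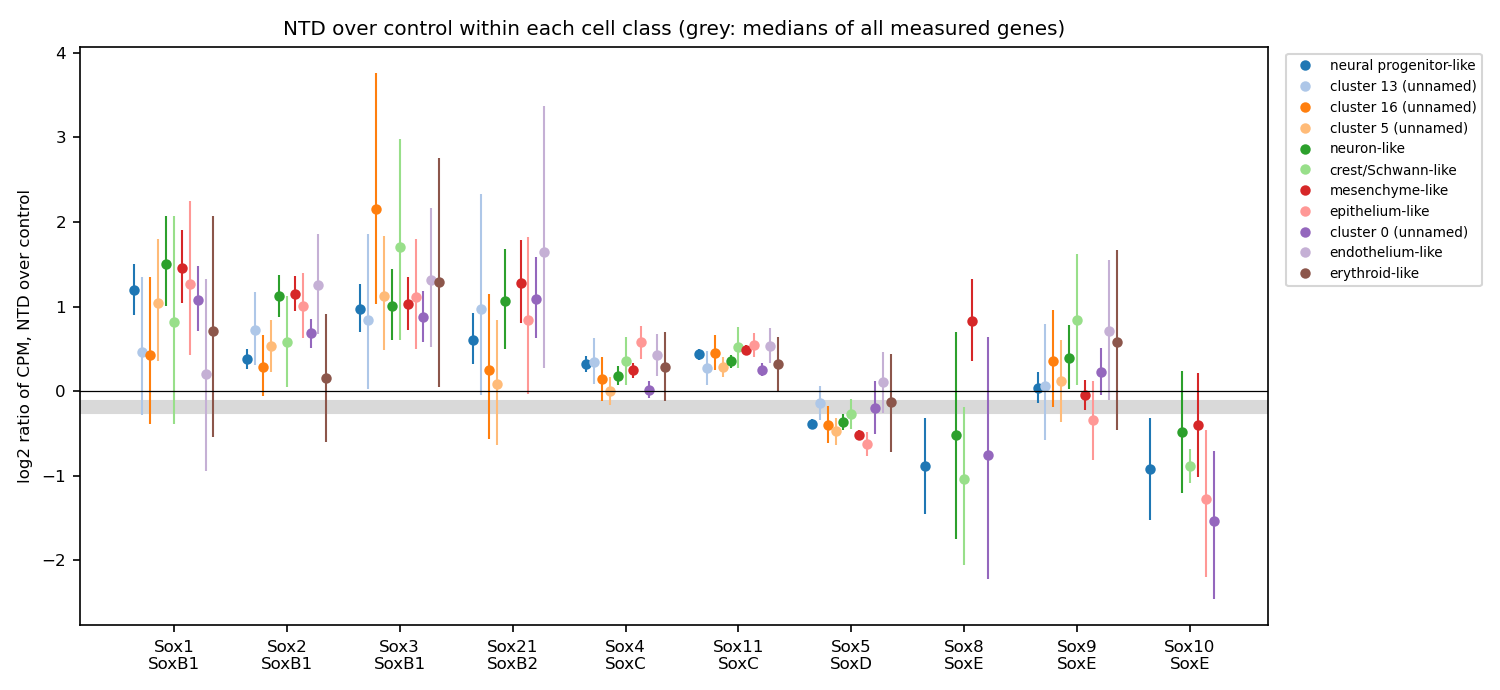
Log2 ratio of NTD over control for each Sox gene, 1 point per cell class with its exact 95% counting interval; the grey band spans the medians of all measured genes over the classes. Sox1, Sox2, Sox3 and Sox11 lie above 0 in all 11 classes, and Sox5 lies below 0 in 10 of them.

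Set against the blood and vessel level of the same library, most SoxB and SoxC differences in the neural classes were not detectable. The Sox2 excess in progenitor-like cells was 68.6 CPM in NTD and 71.6 CPM in control, a difference of -2.98 CPM (-21.7 to 15.7). For Sox21 the excesses were 12.4 and 13.5 CPM (difference -1.15, -9.23 to 6.94), and for Sox11 in neuron-like cells 169.6 and 163 CPM (6.43, -41.4 to 54.3). Sox1 was the exception among them, with an excess of 18.5 CPM in NTD and 3.76 CPM in control progenitor-like cells (difference 14.7, 4.90 to 24.5). Over 9 classes, the interval of the difference in excess held 0 in 9 for Sox3, Sox21 and Sox11, in 8 for Sox2 and in 7 for Sox1 and Sox4. The Sox2 difference became 24.97 CPM (-13.3 to 63.2) when erythroid-like cells alone gave the reference level.

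For Sox5, Sox9 and Sox10 the excess was lower in NTD in the classes where they were best counted. The Sox5 excess was 299 CPM in NTD and 402 CPM in control progenitor-like cells (difference -103, -134 to -72.1), and 343 and 518 CPM in mesenchyme-like cells (-175, -207 to -144). Its interval lay below 0 in 7 of 9 classes. The Sox9 excess was lower in NTD progenitor-like cells, at 15.1 CPM against 32.0 CPM in control (-16.9, -30.2 to -3.49), although its level was nearly the same in both. It was lower too in mesenchyme-like cells (-20.3, -33.9 to -6.76), although over macrophage-like cells alone the NTD log2 level there was -0.11. In crest/Schwann-like cells the Sox10 excess was 462 CPM in NTD and 852 CPM in control (-389, -470.1 to -308). In cluster 5 Sox4 exceeded blood and vessel classes by 42.4 CPM in NTD and 107 CPM in control (-64.7, -111 to -18.0).

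**Figure D4:**
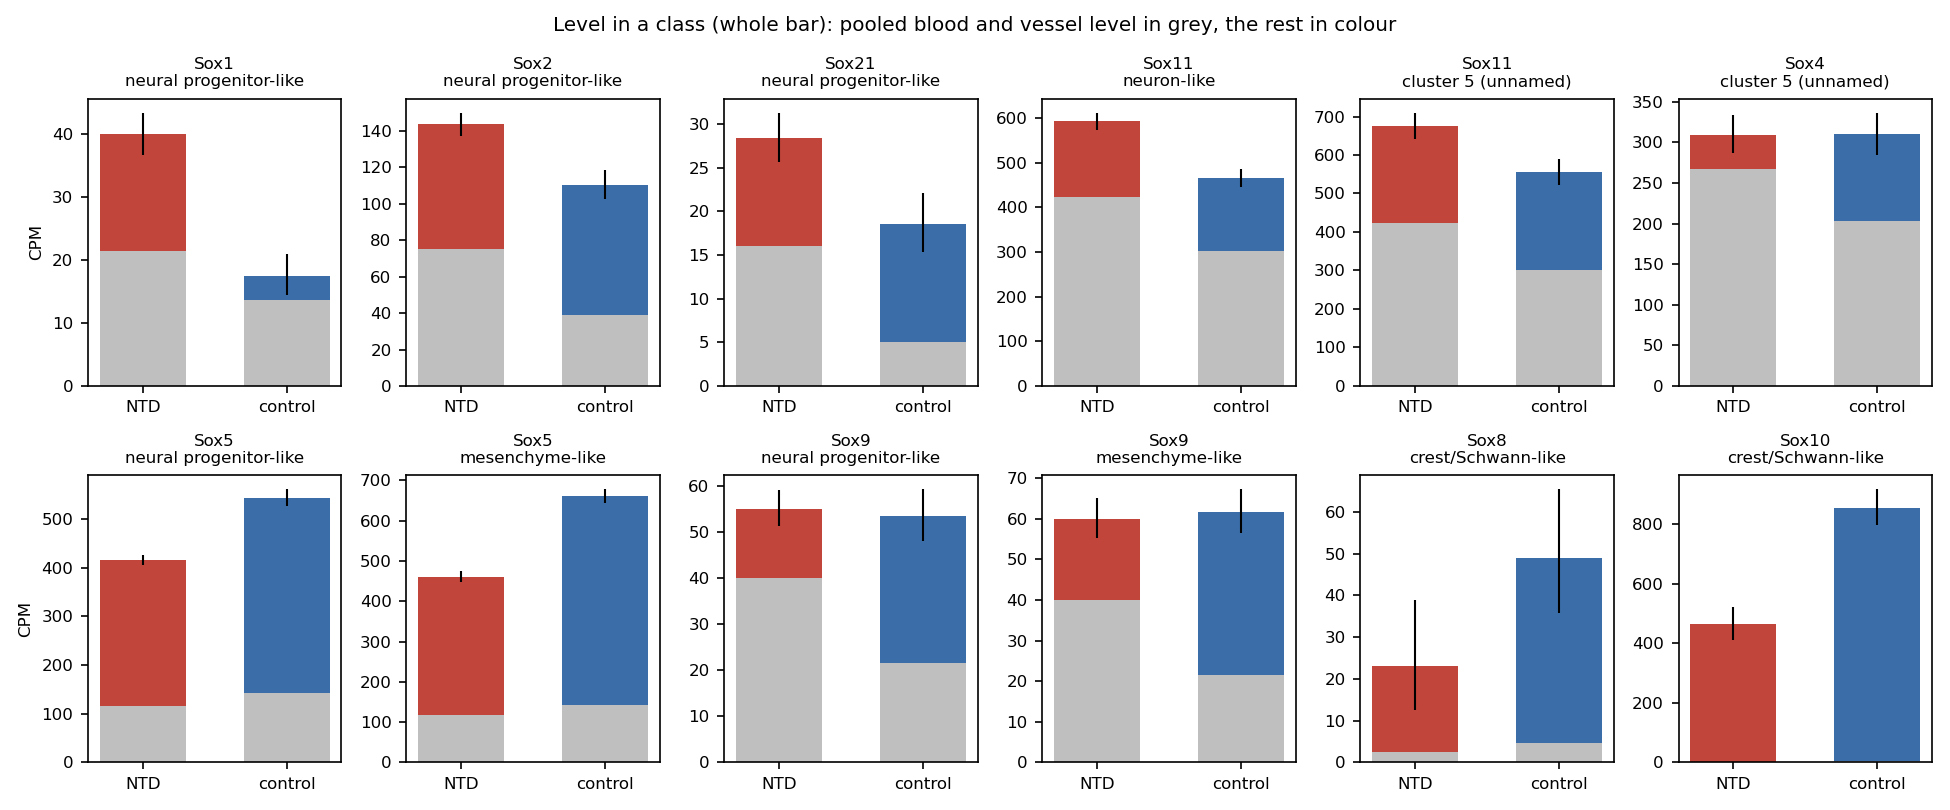
Level in CPM of 12 gene and class pairs, NTD left and control right, with the pooled blood and vessel level of the same library in grey and the rest in colour; lines are exact Poisson 95% intervals of the whole level. The coloured parts are close for Sox2 and Sox21 in progenitor-like and Sox11 in neuron-like cells, and smaller in NTD for Sox5 and Sox10.

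In crest/Schwann-like cells Sox10 was lower in NTD by 0.88 on the log2 scale (-1.08 to -0.68) and Sox8 by 1.04 (-2.06 to -0.19). Sox9 was higher, at log2 0.84 (0.07 to 1.62). In all, 3 of 9 measured Sox genes were at least 1.5-fold higher there and 2 lower, where 10.2% and 18.6% of 9701 genes were. The higher ones were Sox1, Sox3 and Sox9. None of them was detectably above the blood and vessel level in this class in either library, so these ratios are not read as differences in expression. The 12 markers that name the class summed to 988 CPM in NTD and 1516 CPM in control, and the part of that difference in the Sox10 and Sox8 values was not tested. Of 17 other genes linked to SoxE function, 12 were measured, with 1 higher and 5 lower and a median of -0.39 against -0.15 for all genes. Fabp7, a fatty acid binding protein of glial precursors, was higher, at 503 CPM in NTD and 150.1 CPM in control (log2 1.74). Cdh19, a cadherin of Schwann cell precursors, was lower at 240.1 and 477 CPM (-0.99). Cdh19 and most others of this list are also markers that name the class, so the list is not independent of it.

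The ratios of some Sox genes were close to those of genes of like structure and others were not. The median log2 ratio of single-exon coding genes was 0.35 in progenitor-like cells (317 genes) and 0.46 in neuron-like cells (265 genes), against 0.38 and 1.12 for Sox2 and 0.44 and 0.35 for Sox11. Sox1 (1.19), Sox3 (0.97) and Sox21 (0.61) were above the single-exon median in progenitor-like cells, and Sox4 (0.32) was close to it. Sox5 falls in the class of longest gene span (229295 to 2960900 bp), whose 796 genes had a median of -0.36 in progenitor-like cells, against -0.39 for Sox5 itself. In neuron-like cells the longest 735 genes had a median of -0.35, against -0.37 for Sox5. In crest/Schwann-like cells Sox8 and Sox10 went the other way from genes of their span. They stood at -1.04 and -0.88 there, where those genes had medians of 0.30 and 0.055. In mesenchyme-like cells both had the sign of their span medians, Sox8 at 0.83 against 0.09 and Sox10 at -0.40 against -0.05. Sox6, the other SoxD gene of the cartilage programme, had 376 CPM in NTD and 543 CPM in control progenitor-like cells (log2 -0.53). The part of gene structure in the Sox differences was not tested.

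Position along the body axis differed between the libraries, and the ratios were taken again within matched gates of progenitor-like cells. The forebrain gate held 646 NTD and 79 control cells, and the Hox gate 67 NTD and 990 control cells. Sox2 was at log2 0.32 (-0.22 to 0.96) in the forebrain gate and 0.10 (-0.59 to 0.67) in the Hox gate, so a difference was not detectable within either. These values rest on 27 Sox2 UMIs in control forebrain-gated and 24 in NTD Hox-gated cells. Sox1 was at 0.31 (-0.77 to 1.90) and 1.32 (-0.17 to 2.40). Most cells, 85.1% of NTD and 57.1% of control progenitor-like cells, fell in neither gate, so their position was not matched. In them Sox2 was at 0.44 (0.28 to 0.61) and Sox1 at 1.14 (0.78 to 1.54). Sox11 was higher in NTD in both gates, at 0.35 (0.05 to 0.68) and 0.37 (0.04 to 0.66), and Sox5 was lower, at -0.26 (-0.50 to -0.01) and -0.59 (-0.97 to -0.24). Within each library Sox5 was lower in the Hox gate than in the forebrain gate, with 348 and 599.7 CPM in NTD and 527 and 716 CPM in control.

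Of 16 SoxB1 partners and progenitor genes, all measured in progenitor-like cells, 4 were at least 1.5-fold higher in NTD and 1 lower, with a median of -0.06. Over all genes 5.67% were higher and 14.9% lower, with a median of -0.19. Pax6, Nes, Hes5, Notch1, Fabp7 and Rfx4 of this list are also markers that name the class, so the list is not independent of it. Fabp7 had 416 CPM in NTD and 181 CPM in control (log2 1.198), the intermediate filament gene Vim 676 and 429 CPM (0.65), and the transcription factor gene Rfx4 248 and 430.2 CPM (-0.79). Hes5, a Notch target that holds progenitors back from differentiation, had 356 and 244 CPM. Sox2ot, which overlaps Sox2 on its strand, was lower in NTD at 560.4 and 823 CPM (-0.55), the opposite sign to Sox2. Of 14 neuron genes linked to SoxC, all measured in neuron-like cells, 1 was higher and 3 lower (8.96% and 15.9% of all genes), and their median of -0.15 was close to the -0.16 of all genes. The named ones were Stmn1 at 1630.1 and 975 CPM (0.74), Elavl3 at 381 and 581 CPM (-0.61) and Nhlh1 at 16.3 and 25.2 CPM (-0.63). Tubb3, Stmn2, Dcx, Map2, Mapt, Gap43, Elavl3 and Elavl4 of this list are also markers that name the neuron-like class.

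Across 31 units of class and library with at least 50 cells, the genes most like each member were taken by Pearson correlation of log2(CPM + 10) among 11883 candidates outside the family. Units of the same library share its tissue make-up and free RNA, so these values are descriptions. Sox10 was most like Cdh19 (0.95), Heyl (0.95) and Atp10b (0.94). Sox8 was most like Moxd1 (0.85), Atp10b (0.82) and Gfra2 (0.82). Sox2 was most like Id4 (0.86), Fez1 (0.85) and Sall2 (0.84), and Sox21 most like Pantr1 (0.89), Id4 (0.88) and Hes5 (0.88). Sox1 was most like Hes5 (0.82), Ckb (0.81) and Atp5k (0.79). Sox3, read as background above, was most like Slirp (0.92), Nmral1 (0.91) and Rwdd1 (0.91). Sox11 was nearest to Psip1 (0.90), Hdac2 (0.87) and Dpysl2 (0.86), and Sox4 to Csnk1e (0.82), Dpysl2 (0.80) and Ndufb11 (0.80). Sox5 was nearest to Cpsf6 (0.88) and Araf (0.85), and Sox9 to Pcdh18 (0.79), Ptx3 (0.78) and Ddx20 (0.77).

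Box sequence and pattern of level went together for some pairs and not for others. The 7 pairs within a subgroup had 81.4 to 89.5% identical boxes and correlations from -0.03 to 0.81 over the 31 units, with a median of 0.70. The 38 pairs across subgroups had 56.5 to 88.2% identity and correlations from -0.44 to 0.78, with a median of 0.25. Sox4 and Sox11 were the most alike in level (0.81). Sox9 and Sox10, printed above with 83.1% identical boxes, had a correlation of -0.03, and Sox8 with Sox10 had 0.73 at 81.4%. Sox21 and Sox1, of different B subgroups, had 0.78.

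**Figure D5:**
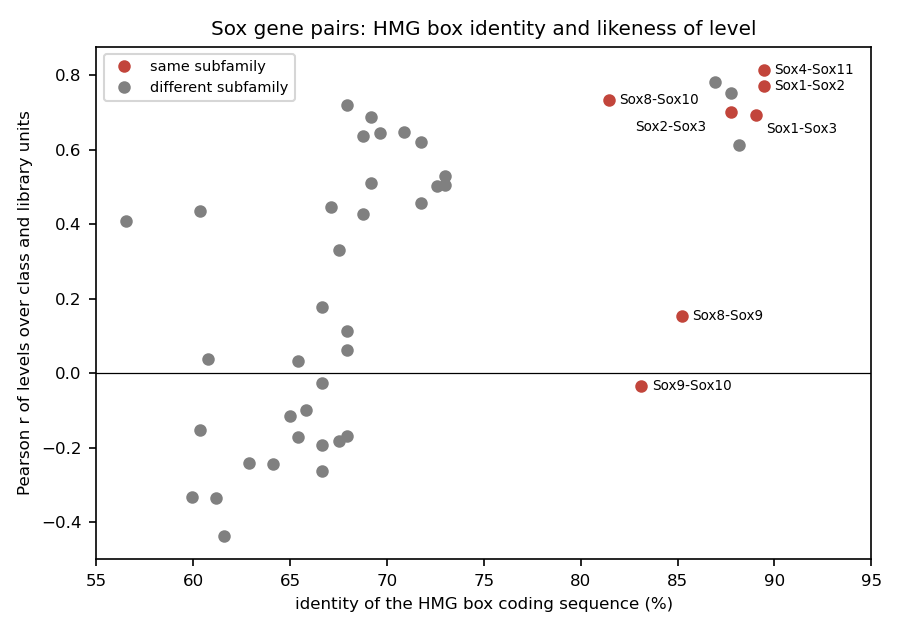
Pearson correlation of levels over 31 class and library units against the percent identity of the HMG box coding sequence, 1 point per pair of Sox genes, red within a subgroup and grey across subgroups. Sox9 with Sox10 (-0.03) and Sox8 with Sox9 (0.15) lie low among the red points, which otherwise stand at 0.69 or above.

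Within a class, the Sox genes were found together about as often as their separate shares would give. Sox2 and Sox11 shared 10.9% of thinned NTD and 7.10% of control progenitor-like barcodes, where the product of their shares was 10.4 and 6.89%. Sox4 and Sox11 shared 18.0 and 12.5%, with products of 17.5 and 12.7%. Sox9 and Sox10 shared 3.61% of NTD and 1.35% of control crest/Schwann-like barcodes, with products of 3.71 and 2.41%. Over 8 pairs in 26 units of class and library each, the product lay within the interval of the observed share in 203 of 208. At this depth most barcodes miss most of their transcripts, so a lack of shared barcodes does not show that the genes are in different cells.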

How the data were processed

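Gene expression was counted in 1 NTD and 1 control library with 10x Genomics Chromium 3′ v3 chemistry, per the labels' protocols. The authors deposited raw UMI counts for each gene and cell barcode. Per the file headers these were written by Cell Ranger 7.0.1. STAR and mm10 are named in the submitters' processing notes. Which annotation, intron setting and cell calling were used is not stated in the sources at hand. An intron setting would change the counts of long genes such as Sox5.

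Barcodes were kept with at least 500 genes, 1000 UMIs and at most 10% mitochondrial UMIs, which removed none. The automatic threshold of Scrublet called 0 doublets, so the barcodes with the highest scores were removed. The share removed was 0.8% per 1000 barcodes of the library that passed the filter (2905 NTD and 2759 control barcodes). This was a choice made after seeing the data. Both libraries were clustered together in scanpy 1.11.5 without integration and without any of 28 Sox symbols (2000 variable genes, 30 principal components, 15 neighbours, leidenalg 0.10.2 at resolution 1.0). A cluster was called X-like from its marker genes when at least 3 were detected and led. These names were rebuilt here, so they can differ from other naming of the same cells.

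UMIs were summed per class and library and scaled to CPM. Intervals are exact Poisson for levels, conditional binomial for ratios, Clopper-Pearson for shares, and normal for differences from the blood and vessel classes (scipy 1.17.1). Ratios used 0.5 added counts and genes of at least 20 UMIs in classes of at least 100 cells per library. No test across samples existed. For shares, cells were thinned to 1500 UMIs, which left out 0 NTD and 3561 control cells. Coordinates and sequences come from GENCODE M21 on GRCm38, matched by gene ID for 99.8% of genes. The counting steps were tested on simulated data.

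The members and lists were chosen with earlier results of these data known. Members are always named. Likeness was computed over unnamed clusters as well as the named classes for which it had been planned. The 3 most like genes per member and up to 3 list genes with the largest log2 ratio (at least 20 CPM in NTD or in control) are named by rule, and 2 genes that the rule names are not reported here. Sox2ot, Hes5, Col2a1, Acan, Matn1 and Snorc were named after their values were seen. Alternatives were TMM scaling (edgeR 4.0.16), totals without haemoglobin, mitochondrial and ribosomal protein genes, other UMI minimums, cell filters, depths, classes, resolutions, gates and folds. The removal of shared barcodes, equal weight of clusters, the subtraction of the blood and vessel level and its other versions, and the medians of genes of like structure were added after seeing the data.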

Additional observations from a re-analysis of the deposited data

How the results depend on the processing

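No paired analysis was possible because each group has 1 library, and no replicate could be left out. In progenitor-like cells the count of Sox genes at least 1.5-fold lower, 2 as reported, became 1 with a minimum of 100 UMIs and 0 in thinned cells, in forebrain-gated cells and at 2-fold. The count at least 1.5-fold higher, 3 as reported, became 0 in forebrain-gated cells, 5 at a log2 ratio of 0.32 and 1 at 2-fold. In neuron-like cells the count lower, 0 as reported, became 1 with doublets kept, with the stricter filter, in thinned cells, with classes from marker UMIs and at resolutions 0.5 and 2.0, and 3 at a log2 ratio of -0.32. The Sox2 excess difference of -2.98 CPM became 24.97 CPM over erythroid-like cells alone. Signs turned for Sox21 in forebrain-gated progenitor-like cells (log2 -0.19), for Sox8 in Hox-gated ones (0.12), and for Sox3 (-0.095) and Sox8 (-0.28) in mesenchyme-like cells classed by marker UMIs; the cause was not tested. Values near 0 also changed sign, for Sox9 in 4 of 15 settings in progenitor-like cells (down to -0.23) and 5 of 13 in mesenchyme-like cells (-0.84 to 0.29), and for Sox10 in neuron-like cells in 1 of 12 (0.069). Classing by marker UMIs, which placed 7915 NTD and 9988 control barcodes in the erythroid class, lowered the NTD Sox2 level in progenitor-like cells over blood and vessel classes to log2 0.07, and the Sox11 level in neuron-like cells to 0.03. Crest/Schwann-like cells classed by marker UMIs were too few for a value. Sox10 in crest/Schwann-like cells ranged from -0.97 to -0.72 and Sox5 in progenitor-like cells from -0.59 to -0.21 over all settings. Levels under 10 CPM, as for Sox8 and Sox10 outside the crest, rest on few UMIs.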

Other observations

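Some Sox genes outside the 10 were restricted to a class. The SoxF genes Sox7, Sox17 and Sox18, known from blood vessel formation, stood at 93.0, 71.5 and 38.8 CPM in NTD and 142, 70.8 and 33.4 CPM in control endothelium-like cells. In neural progenitor-like cells they stood at 1.59, 1.59 and 3.04 CPM in NTD and 1.98, 2.89 and 2.74 CPM in control. The SoxC gene Sox12, by contrast, was counted widely, at 40.8 CPM in NTD and 28.0 CPM in control progenitor-like cells, 43.9 and 37.8 CPM in neuron-like cells, and 63.8 and 34.3 CPM in erythroid-like cells. Of the 9 Sox genes outside the 10 that were listed, 7 were measured in progenitor-like cells, with 0 at least 1.5-fold higher in NTD and 1 lower, where 5.67% and 14.9% of all genes were. Sox6 was higher in NTD in neuron-like cells, at 149 CPM against 107 CPM in control, the opposite direction to its difference in progenitor-like cells.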
